A study of Mus musculus with 8 samples.

Results

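CTCF binding in mouse cortical neurons was described here at 964 regions that lay between genes and were listed in untreated cultures but not after NMDA. They were chosen by location and by absence. A region of the control list counted when it overlapped no NMDA region by even 1 bp, when its summit lay outside every protein-coding gene, and when the summit was more than 1 kb from every gene end. The 964 regions are part of 33815 control regions on chromosomes 1 to 19, X and Y, of which 3117 (9.22%) overlapped no NMDA region at any location. Elsewhere, 1449 such regions had their summit inside a gene and 704 within 1 kb of a gene end. The intergenic regions set beside them were 2122 NMDA-only regions and 12018 control regions shared with the NMDA list.

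The data come from chromatin immunoprecipitation and sequencing (ChIP-seq) with an antibody against CTCF in primary wild-type cortical neurons of Swiss-Webster mice. The cells were taken at embryonic day 16 and collected on day 13 of culture. NMDA cultures were exposed to 50 µM NMDA for 10 minutes and left to recover in medium without it for 50 minutes, and control cultures had no treatment. Each condition has 2 ChIP samples, which the labels call biological replicates, and 2 input samples, which were not analysed here. A growth text common to all samples mentions etoposide, a topoisomerase inhibitor, but no sample carries it as its treatment. The label of neurons could not be checked, because region lists hold no expression of marker genes.

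The authors deposited 1 list of reproducible regions for NMDA (36186 on these chromosomes) and 1 for control, each built over both replicates. Conditions therefore have no replicate spread and were not tested against each other, and read depth is unknown. The intervals given are 95% Wilson or Newcombe intervals over regions. They cover counting error only, and neighbouring regions are not independent replicates. Signal, width and reproducibility score bear on whether a region is found again, so they are given as descriptions without tests. The signal is the authors' −log10 p of a region, and it was ranked only within its own list because it grows with depth. In the NMDA list it is the sum of a column for each replicate in 36186 of 36186 regions, within 0.001. Replicate columns are not part of the control list, and NMDA and control signals are on scales that were not shown to be the same.

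CTCF is a DNA-binding protein with a row of zinc fingers. Together with the ring-shaped cohesin complex it stops loop extrusion, anchors chromatin loops and separates regulatory domains, and many of its sites lie far from genes. NMDA opens a class of glutamate receptors that let calcium into neurons, which starts the transcription of activity-regulated genes.

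In 1 member lay a microRNA locus with a hairpin annotated on each strand, and its products are shown because a region between protein-coding genes can still cover a transcribed element. The region (chr12:112130392-112131314, mm10) was 923 bp wide and lay 3199 bp from Aspg. Its signal of 37.59 was near the bottom of the list and its score was 544. The hairpin of miR-203 on the plus strand began 108 bp from the summit, with a RefSeq model, Gm51289, on the opposite strand. The mature RefSeq sequences (GRCm38.p6) are given 5′ to 3′ with the seed, bases 2 to 8, in capitals.
mmu-miR-203-5p: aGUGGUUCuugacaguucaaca
mmu-miR-203-3p: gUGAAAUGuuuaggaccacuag
mmu-miR-203b-5p: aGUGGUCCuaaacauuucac
mmu-miR-203b-3p: uUGAACUGucaagaaccacugg
These 4 products carry 4 different seeds. A microRNA hairpin lay in 1 of 964 members, in 1 of 2122 NMDA-only and in 7 of 12018 shared intergenic regions.

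A few member regions also met gene promoters, among them those of long noncoding RNAs (lncRNAs). RefSeq promoter windows run from 250 bases before to 50 after a gene's start. Windows of all gene types were used. The 964 members overlapped 18 of them, the 2122 NMDA-only intergenic regions 36 and the 12018 shared intergenic regions 450. Per region this was fewer in members than in shared regions. Of the 964 members 15 overlapped such a window and 5 had their summit inside one. All 5 had it in a window of an lncRNA gene, since the rule itself keeps summits out of the windows of protein-coding genes. The windows below are shown since they are the DNA under a member's summit that could be read. They belong to the strongest of the 5 and to both windows that hold letters of the CTCF core. Capitals mark AGGTGGC, and AGGGGGC was searched as well, both on either strand.
2310069B03Rik, chr6:82881804-82882103, minus strand: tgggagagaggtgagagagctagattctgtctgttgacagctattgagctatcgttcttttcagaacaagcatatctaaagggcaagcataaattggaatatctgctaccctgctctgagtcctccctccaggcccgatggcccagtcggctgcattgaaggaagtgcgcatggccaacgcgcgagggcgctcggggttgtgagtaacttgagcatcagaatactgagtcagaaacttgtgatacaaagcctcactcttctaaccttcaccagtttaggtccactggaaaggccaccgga
Gm41512, chr16:97670650-97670949, minus strand: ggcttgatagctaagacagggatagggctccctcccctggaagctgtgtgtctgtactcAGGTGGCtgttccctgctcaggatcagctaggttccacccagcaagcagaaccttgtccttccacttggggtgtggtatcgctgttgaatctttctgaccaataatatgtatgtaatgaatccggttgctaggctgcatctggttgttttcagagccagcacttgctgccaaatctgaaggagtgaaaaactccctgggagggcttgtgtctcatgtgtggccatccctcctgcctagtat
Gm34607, chr10:22402534-22402833, minus strand: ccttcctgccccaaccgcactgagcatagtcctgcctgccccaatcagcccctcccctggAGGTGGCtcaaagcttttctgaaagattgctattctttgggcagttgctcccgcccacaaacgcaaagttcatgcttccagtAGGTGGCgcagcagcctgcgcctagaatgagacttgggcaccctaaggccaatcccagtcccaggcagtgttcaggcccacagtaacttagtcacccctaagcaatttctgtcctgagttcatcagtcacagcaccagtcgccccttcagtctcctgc

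Positions are counted from the 5′ end of the window as printed, and the 2 motifs cannot match at the same place. In the Gm41512 window the letters began at position 60 and the summit of the member lay at position 73. In the Gm34607 window they began at positions 61 and 143, with the summit at position 155. The 2310069B03Rik window held neither motif, with the summit at position 206. The 3 members had signals of 73.94 at Gm41512, 41.4 at Gm34607 and 74.77 at 2310069B03Rik. Either set of letters occurred in 6 of 18 windows that a member overlapped (33.3%, 95% Wilson interval 16.3 to 56.2), in 12 of 36 windows that an NMDA-only intergenic region overlapped (33.3%) and in 96 of 450 that a shared intergenic region overlapped (21.3%). It was 28.7% of 6632 windows that any control region overlapped, 11.9% of windows of lncRNA genes and 16.01% of all 32851 windows. A match of 7 letters is a description and not a measured site, and other member DNA was not read.

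Members were weak regions of the control list. Their −log10 p had a lowest value of 32.98, a median of 52.62 (quartiles 42.15 and 73.05) and a highest value of 298.4, against a median of 196.8 in shared intergenic control regions. The median member stood at percentile 10.89 of the control list and the median shared intergenic region at percentile 56.85. In all, 952 members (98.8%) lay below the list median. NMDA-only intergenic regions took a like place in their own list, with a median at percentile 14.35. So did the other control-only regions in the control list, with medians at percentile 9.336 inside genes and 8.895 at gene ends. By decile of the control list, weakest first, the members numbered 461, 232, 137, 87, 35, 8, 3 and 1, and deciles 9 and 10 held none, which allows up to 0.265% of the 1448 intergenic regions of decile 9 by the Wilson interval.

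**Figure D1:**
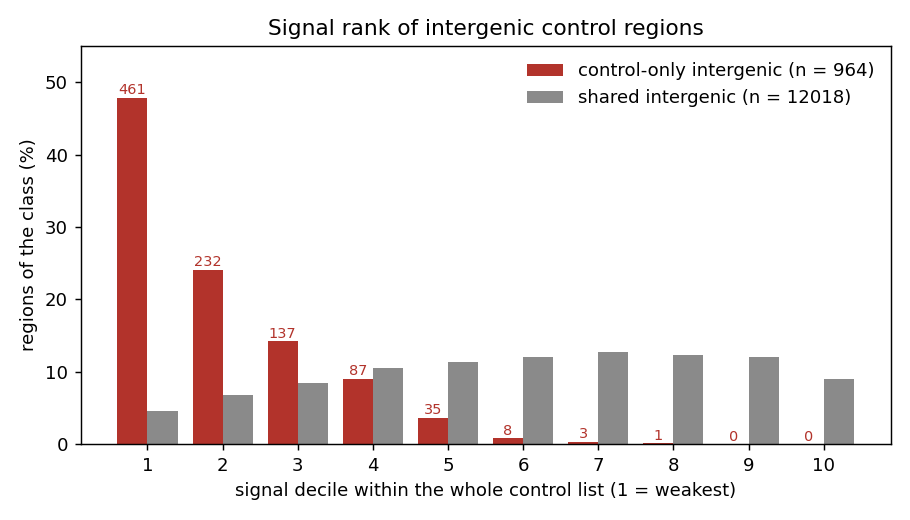
Share of the 964 control-only intergenic regions (red, left bars) and of the 12018 shared intergenic control regions (grey, right bars) in each signal decile of the whole control list, weakest decile at 1. Numbers over the red bars count members, of which 461 fall in decile 1 and 12 above decile 5.

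Members were also narrow. Their width had a median of 735 bp (quartiles 592 and 908.8, range 386 to 2086), against 706 bp in NMDA-only and 1098 bp in shared intergenic regions. A width over 1500 bp was seen in 18 members (1.87%), in 58 NMDA-only regions (2.73%) and in 2091 shared regions (17.4%). Within one signal band the widths lay closer together. Between the members' quartiles of signal, the median width was 704 bp in 482 members and 784 bp in 1322 shared intergenic regions. The reproducibility score, which ends at 1000, had a median of 652 in members, 782 in NMDA-only and 1000 in shared regions, and 58 members (6.02%) stood at that ceiling. The other control-only regions had median scores of 660 inside genes and 686 at gene ends, and median widths of 777 and 1006 bp.

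Regions between genes made up a smaller part of control-only than of shared control regions, 30.9% (29.3 to 32.6) against 39.1% (38.6 to 39.7), a difference of −8.22 points (95% Newcombe interval −9.91 to −6.49). Read the other way, 7.43% (6.99 to 7.89) of intergenic control regions were control-only, against 9.83% of those inside genes and 11.5% of those at gene ends. The differences were −2.41 points (−3.07 to −1.75) from regions inside genes and −4.12 points (−5.06 to −3.22) from gene ends.

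The order of the locations was another in stronger regions. In the 3 weakest deciles 25.7% of intergenic regions were control-only, against 28.0% inside genes and 32.6% at gene ends. In deciles 4 to 10 it was 1.37% of 9748 intergenic regions, against 0.979% of 9906 inside genes and 0.648% of 4015 at gene ends. Pooled over these deciles, the intergenic share was higher by 0.395 points (0.0938 to 0.702) than inside genes and by 0.727 points (0.360 to 1.05) than at gene ends. The intergenic share was highest in deciles 4 and 5, and in deciles 7 and 8 on 3 regions and 1 region. In decile 6 it was 0.552%, against 0.664% inside genes and 0.706% at gene ends. The locations also differ in their make-up by decile, with 1086 of 9748 intergenic and 1176 of 4015 gene-end regions in decile 10. In all, 134 members (13.9%) were in decile 4 or above, against 97 (6.69%) of the control-only regions inside genes and 26 (3.69%) of those at gene ends. The gap of intergenic above gene-end regions in deciles 4 to 10 was lost or reversed when sharing needed closer matches. It was −0.0903 points (−1.07 to 0.842) with a reciprocal overlap of at least 50%. With summits within 100 bp it reversed to −4.18 points (−5.22 to −3.18), an interval wholly below 0. With scores of at least 830 it was 0.290 points with an interval that includes 0 (−0.0295 to 0.553). The difference from regions inside genes also had intervals that include 0, with summits within 100 bp (0.0270 points) and with scores of at least 830 (0.0620 points).

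**Figure D2:**
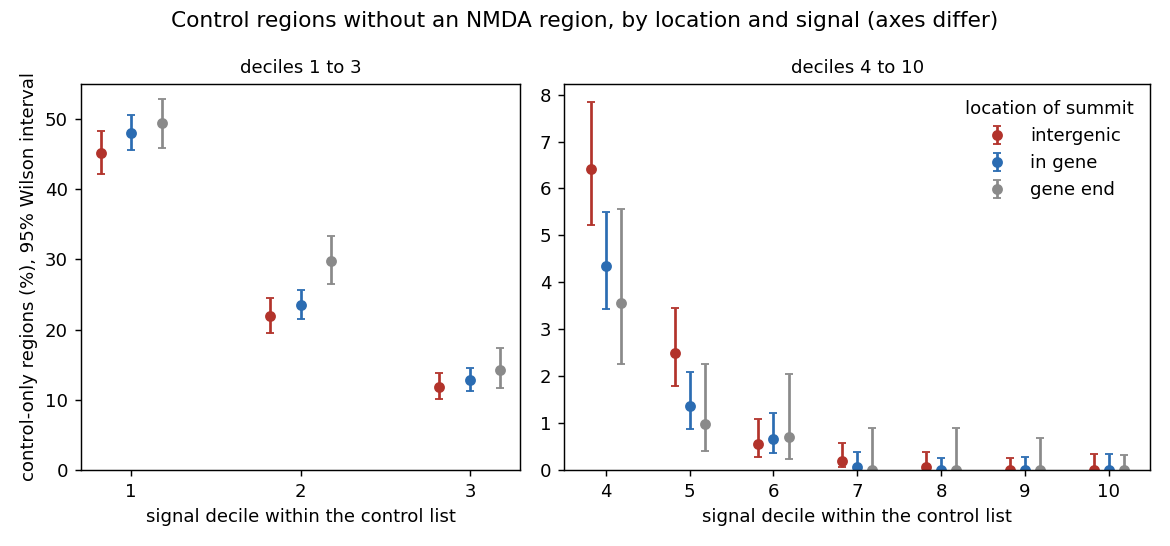
Percent of control regions with no overlapping NMDA region, by signal decile of the control list and by the location of the summit (intergenic in red, inside a gene in blue, within 1 kb of a gene end in grey). Points are shares with 95% Wilson intervals, and the panels have different vertical axes. In decile 1 the intergenic share of 45.2% is below that of gene ends (49.4%), and in decile 4 it is 6.41%, above 3.56% at gene ends.

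Members lay farther from genes than shared intergenic regions. The distance from the summit to the nearest end of a protein-coding gene had a median of 29279 bp (quartiles 7381 and 98601) in members, 21236 bp in NMDA-only and 16624 bp in shared intergenic regions. Of the members 357 (37.0%) were farther than 50 kb, against 33.0% of NMDA-only and 25.6% of shared intergenic regions. The difference was 4.00 points (95% Newcombe interval 0.383 to 7.67) from NMDA-only and 11.4 points (8.30 to 14.6) from shared regions. Beyond 100 kb were 241 members (25%), against 20.4% of NMDA-only and 14.1% of shared regions. The difference there was 4.64 points (1.47 to 7.92) from NMDA-only and 10.9 points (8.18 to 13.8) from shared regions.

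The difference from shared regions was smaller in a band of similar signal. Between the members' quartiles of signal, 5.92 points (1.08 to 10.9) more members than shared regions were farther than 50 kb. The band does not make signal equal, since its median percentile was 10.89 in members and 13.86 in shared regions. In that band the difference beyond 10 kb was 2.15 points, with an interval that includes 0 (−2.82 to 6.91). The call beyond 50 kb ended where sharing needed closer matches. Members then exceeded shared regions by 1.84 points (−0.403 to 4.17) with a reciprocal overlap of 50% and by 2.02 points (−0.294 to 4.43) with summits within 100 bp. The difference from NMDA-only regions turned to −1.43 points with the reciprocal overlap and to −1.30 points with the summits, both with intervals that include 0. It also lost its call, with intervals that include 0, for an NMDA list as long as the control list (1.75 points), for autosomes only (3.60 points) and for a limit of 5 kb (4.17 points).

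**Figure D3:**
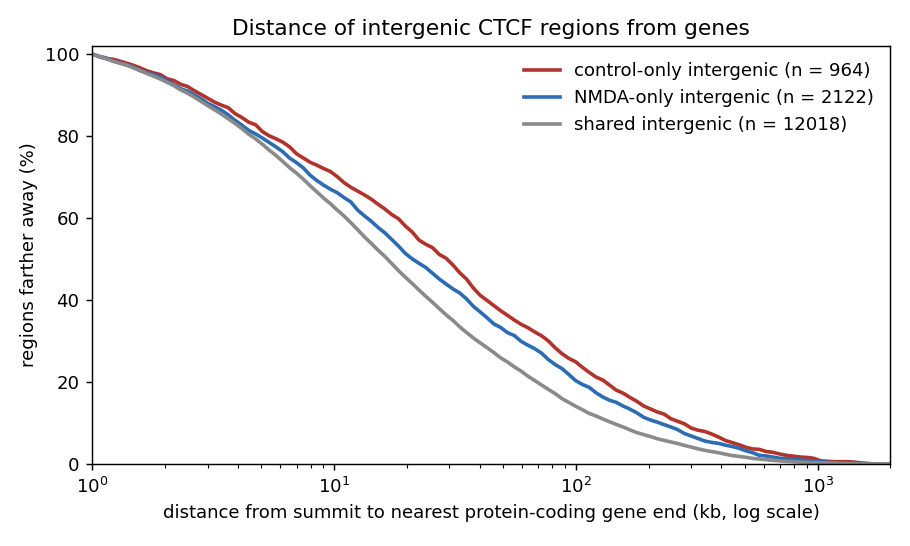
Percent of intergenic regions whose summit is farther than a given distance (kb, log scale) from the nearest protein-coding gene end, for control-only (red, n = 964), NMDA-only (blue, n = 2122) and shared control regions (grey, n = 12018). At 50 kb the curves stand at 37.0%, 33.0% and 25.6%.

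The gaps that hold members were wide. The space between the flanking protein-coding genes had a median of 155206 bp around 961 members, 111624 bp around NMDA-only and 94929 bp around shared intergenic regions. It was over 500 kb for 27.1% of members, against 21.6% of NMDA-only and 17.6% of shared regions, which is 5.44 points (2.19 to 8.80) above NMDA-only and 9.43 points (6.64 to 12.4) above shared regions. Gaps over 1 Mb held 134 members (13.9%), against 11.3% of NMDA-only and 8.40% of shared regions. In the signal band the excess over shared regions for gaps over 500 kb was smaller, 6.54 points (2.36 to 10.99). Gap width was not recomputed with closer matches, where the excess in distance beyond 50 kb lost its call.

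On either side of the 1 kb limit lay weak regions. The 5 nearest members lay 1001 bp from Ddx11, a DNA helicase gene (signal 35.12), 1018 bp from Zfp128 (66.31), 1032 bp from Fzd5, a Wnt receptor gene (37.61), 1040 bp from Dmrta1 (57.69) and 1047 bp from Gip, which encodes an incretin hormone (56.52). The 5 control-only regions just inside the limit lay 1000 bp from Mmp16 (103), 999 bp from Atp5l (50), 988 bp from Kcnab3 (39.08), 980 bp from Lrig1 (44.9) and 967 bp from Osr1 (44.41).

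The strongest members stood well inside the list. The first, with a signal of 298.4 and rank 9046 of the control list, was 1555 bp wide (chr15:94212993-94214547) and lay 54668 bp from Adamts20, a secreted metalloproteinase gene, in the gap towards Prickle1, a planar cell polarity gene. The nearest NMDA region was 24971 bp away, overlapped another control region and had a signal of 47.3. The second (240.3, chr1:171321166-171322722) lay 3021 bp from Dedd, a death effector domain gene, inside the lncRNA gene Gm20045, with an NMDA region 6088 bp away. Both had a reproducibility score of 1000.

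The third (224.8, chr6:61062261-61063645) lay 73927 bp from Mmrn1, a platelet multimerin gene, and 74674 bp from any NMDA region. The fourth (221.2, chr5:48345018-48346866) lay between Pacrgl, 26550 bp away, and Slit2, which encodes an axon guidance ligand. The nearest NMDA region was 83000 bp from it. The fifth (207.9, chr5:83518337-83519604) lay 163628 bp from Tecrl on the side of Epha5, an ephrin receptor gene. The sixth, 51750 bp from Tmx3, had a signal of 195.4 but a score of only 640.

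Ranks 7 to 10 among members had signals between 167.7 and 195. They lay nearest to Gnpda2 in the gap towards Gabrg1, a GABA-A receptor subunit gene, to Pam, which encodes the enzyme that amidates neuropeptides, to Rab28, a small GTPase gene, and to Galnt14, an O-glycosylation gene. The Rab28 region (chr5:41124432-41125706) was 499771 bp from that gene in a gap of 1979380 bp that ends at Hs3st1. For all 10 of the strongest members the nearest NMDA region was one that overlaps another control region, at 5506 to 83000 bp. Their width ran from 844 to 1849 bp.

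**Figure D4:**
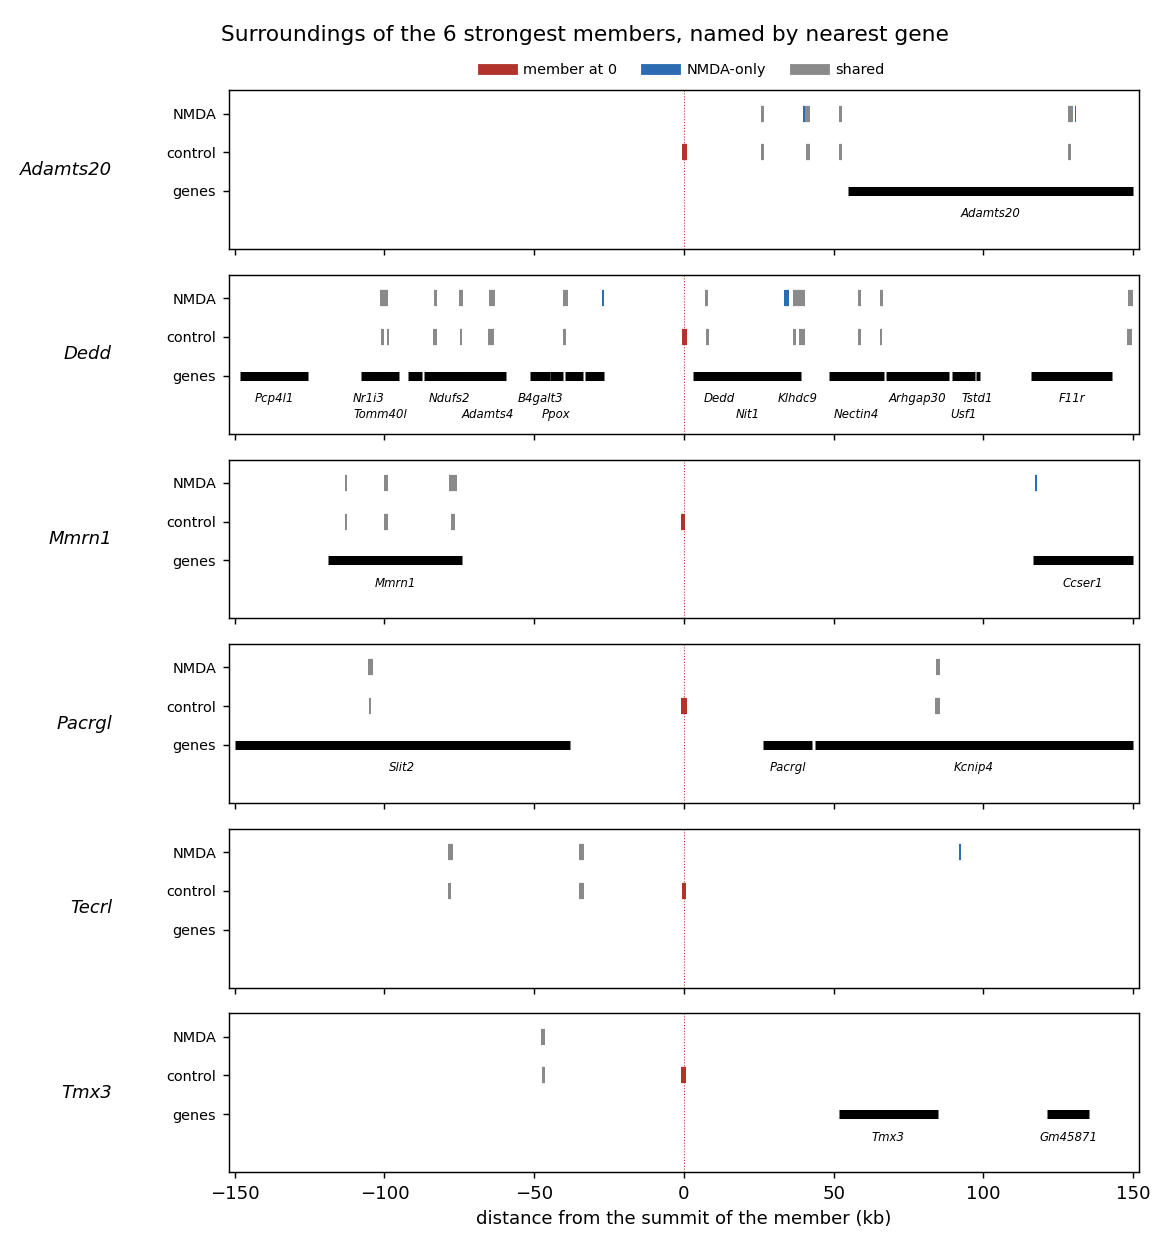
Regions and protein-coding genes within 150 kb of the summits of the 6 strongest members, each named by its nearest gene, with distance in kb. The NMDA row is above the control row, the member is red at 0, regions found in both lists are grey and NMDA-only regions blue, black bars are genes, and names are left out where they would overlap. The NMDA row is empty at 0 in every panel, with the nearest NMDA region 6088 bp away at Dedd and 83000 bp away at Pacrgl, and no gene comes within 150 kb of the member named after Tecrl.

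The widest members were not the strongest. The widest, 2086 bp (chr7:130826308-130828393), lay 1778 bp from Btbd16 with a signal of 78.36. It was followed by a region of 1932 bp at Dhx57, a helicase gene (64.54), one of 1911 bp at 348577 bp from Mdfic (73.9), the region of 1849 bp near Pacrgl and one of 1814 bp in the gap beside Cstad (46.66). The Pacrgl region was the only one of the 5 widest that was also among the 10 strongest.

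The members farthest from any gene were weak in the control list, as members were in general. Their signals lay on both sides of the median of 52.62 of all members. The farthest (chr8:6788711-6789483) was 1683993 bp from Slc10a2, a bile acid transporter gene, and had a signal of 49.02. The next was 1655983 bp from Cntnap5b, a contactin-associated protein gene of the neurexin superfamily (84.66). Others lay 1547129 bp from Cdh8 (43.92), 1514946 bp from Mrpl39 (57.89) and 1490069 bp from Cdh9 (61.56). Cdh8 and Cdh9 encode classical cadherins. These 5 regions were 471 to 773 bp wide, beside a median of 735 bp in all members.

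The nearest NMDA region was often many kb away, and NMDA-only intergenic regions were much alike in their gap to the control list. The gap from members to the nearest NMDA region had a median of 15742 bp (quartiles 5084 and 55452). From NMDA-only regions to the nearest control region it was 14572 bp. The gap was within 10 kb for 391 members (40.6%) and over 100 kb for 142 (14.7%). These shares were 41.7% and 12.8% in NMDA-only intergenic regions, and 43.5% and 8.25% in control-only regions of all locations. Within 1 kb there were 64 members (6.64%, against 6.88% of NMDA-only regions). For 56 of the 64 the neighbour was an NMDA region that overlaps another control region. The nearest, 16 bp from an NMDA region, had Adcy10, a soluble adenylyl cyclase gene, as its nearest gene (chr1:165581672-165582751). Next came members 39, 70, 81 and 123 bp from an NMDA region. Their nearest genes were in turn Ice1, Cenpc1 (239142 bp from the member), Fzd5 and Cdh2.

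The member most remote from NMDA regions was the one with Cntnap5b as nearest gene, 1588738 bp away. The next were 1233215 bp away with Csmd3 as nearest gene, at 583321 bp (signal 57.64), and 971280 bp away with Gm17026 at 119651 bp (48.33). Then came 926116 bp with Cdh8 at 1547129 bp (43.92), and 844166 bp with Cadm2, a synaptic adhesion gene, at 993296 bp (115.7). For 795 members (82.5%) the nearest NMDA region was a shared one, with a median signal percentile of 53.4 in the NMDA list. For the other 169 it was NMDA-only, with a median percentile of 16, beside 14.35 in all NMDA-only intergenic regions. The share of shared regions in the whole NMDA list is not given here. The 82.5% is therefore not read as a trait of members, nor are the like counts within 1 kb and for the strongest members.

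Under the overlap rule members had close neighbours in their own list less often. Spacing is not free of that rule, because an NMDA region can overlap several close control regions and make all of them shared. The differences below are therefore descriptions. Another control region lay within 10 kb of 345 members (35.8%), against 43.1% of shared intergenic regions, a difference of −7.31 points (−10.4 to −4.10). For NMDA-only regions and their own, longer list it was 40.3%, which cannot be compared directly. In the same signal band the difference from shared regions was −4.49 points with an interval that includes 0 (−9.50 to 0.656). It turned to 9.21 points (6.67 to 11.8) with a reciprocal overlap of 50% and to 7.55 points (4.93 to 10.2) with summits within 100 bp. The nearest other control region was a shared one for 861 members (89.3%), and of all 33815 control regions 30698 were shared.

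Members were spread over many gaps and seldom came in groups. The 964 members had 887 different nearest genes, and 817 of these genes were nearest to 1 member. A single member was found in 775 gaps, 2 members in 74, 3 in 9, 4 in 1 and 5 in 2. Runs of members with no other control region between them numbered 47 and took in 106 members.

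The gap from Rps24, a ribosomal protein gene, to Zmiz1, a transcriptional coregulator gene, on chromosome 14 held 5 members with signals of 35.09 to 67.04 beside 11 shared and 2 NMDA-only regions. Their summits spanned 487838 bp of a gap of 960914 bp. The gap from Cstad to 1700001O22Rik on chromosome 2 held 5 members as well (41.06 to 59.99), within 111769 bp. The gap from Gm15501 to Tenm4, a teneurin gene of synapse partner matching, held 4 members (42.97 to 99.51) over 1367265 bp. Gaps from Hs3st1 to Rab28 and from Kcnv1 to Csmd3 held 3 each, and the second of these had only 1 shared control region. Its members had signals of 89.84, 148.2 and 57.64. The longest run was of 5 members from Grin3a to Smc2 on chromosome 4, past other genes, with summits spread over 2340877 bp and no shared control region between them.

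Developmental transcription factor genes were the nearest gene of 36 members (3.73%, 95% Wilson interval 2.71 to 5.13), against 30 NMDA-only (1.41%, 0.992 to 2.01) and 193 shared intergenic regions (1.61%, 1.40 to 1.85). The list has 105 genes and 31 of them were named this way. In the signal band the shares were 3.94% of members (2.54 to 6.07) and 2.12% of shared regions (1.47 to 3.04), with intervals that overlap. Beyond 50 kb from a gene end they were 5.88% of 357 members, 2.00% of 701 NMDA-only and 2.43% of 3081 shared regions. Within 50 kb they were 2.47% of members, 1.13% of NMDA-only and 1.32% of shared regions. These are counts without a test, since the list was chosen with earlier results of these data known. With genes of all types as neighbours, under which a noncoding gene can be nearest, the share was 1.22% of 741 members. Under changed settings only the share of members was recomputed. Whether it stays above that of the other sets was not tested.

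The strongest of these members (signal 163.5, chr6:14896588-14897644) lay 4410 bp from Foxp2, a forkhead gene of cortical and striatal neurons. An NMDA-only region lay 3700 bp from it, at a signal of 18.54 and percentile 0.263 of the NMDA list. The second (116.2, chr11:19419798-19421076) was 400730 bp from Meis1, a homeobox gene, with the nearest NMDA region 250042 bp away. The third (101, chr2:9888882-9889822) was 1430 bp from Gata3, a zinc finger regulator of T cells and of some neurons, inside the lncRNA gene 9230102O04Rik.

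Several families appeared with more than 1 gene. The Iroquois homeobox genes Irx1, Irx3, Irx4 and Irx5, which pattern the neural tube and limbs, were each nearest to 1 member, at 71173 to 211948 bp and with signals of 35.04 to 52.4. Six2 and Six3, of kidney, eye and forebrain development, were nearest to members at 13155 and 13864 bp. Sox2, Sox5, Sox6 and Sox11 of neural progenitors and young neurons were each nearest to 1 member, at 18787 to 65944 bp. Tshz2, Zfhx3, Sall3 and Nkx6-1 were each nearest to 2 members. Tbr1, which marks deep-layer cortical neurons, had a member 1664 bp away (signal 58.35, chr2:61815536-61816455), and Satb1 one at 258134 bp (46.1). The 36 members had a median signal of 52.94 and a median distance of 78068 bp.

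**Figure D5:**
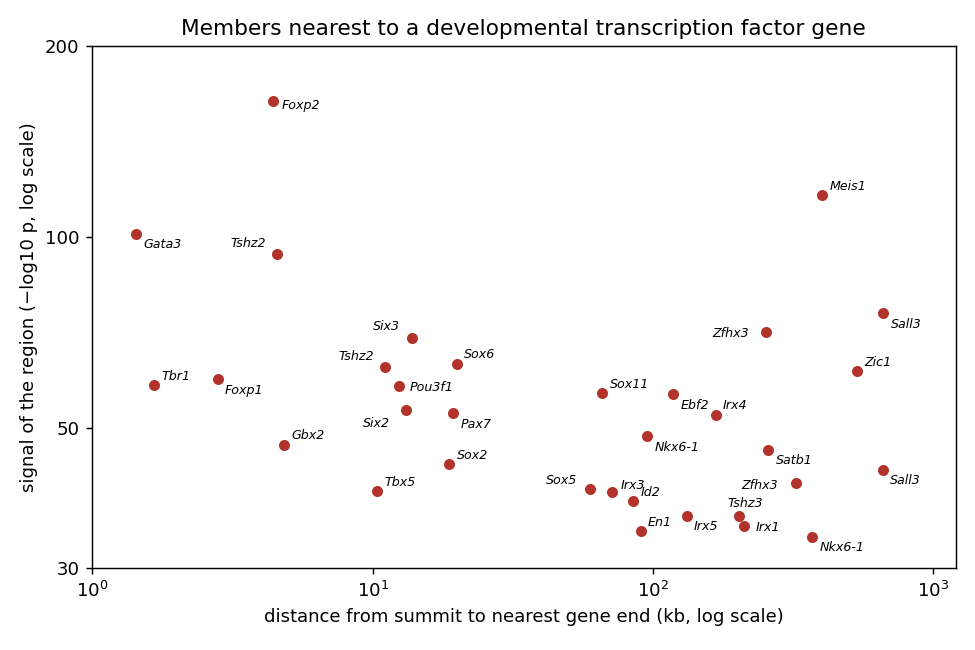
Signal (−log10 p, log scale) against distance from the summit to the nearest gene end (kb, log scale) for members nearest to a developmental transcription factor gene, 1 point per region, without those not reported here. Foxp2 is highest at 163.5, and points run from Gata3 at 1430 bp to Sall3 at 663030 bp with signals down to 33.62.

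Genes induced by neuronal activity were the nearest gene at shares close to those of the other intergenic sets. Immediate early genes were nearest to 3 members (0.311%), against 5 NMDA-only (0.236%) and 34 shared intergenic regions (0.283%). The 3 were Nr4a1 at 7313 bp (signal 86.98), Klf4 at 519768 bp (37.25) and Nr4a3 at 237021 bp (36.13), all transcription factor genes. In the signal band immediate early genes were nearest to 0 of 482 members, which allows up to 0.791%, and to 5 of 1322 shared regions (0.378%). Later activity-regulated genes were nearest to 2 members (0.207%, 0.0569 to 0.753), against 0.189% of NMDA-only and 0.150% of shared regions. They were Sorcs3, a sorting receptor gene, at 459330 bp (97.21), and Bdnf, which encodes a neurotrophin, at 135007 bp (44.32).

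Genes of the synapse were nearest to small numbers of regions in every set, and their shares were not tested. Glutamate receptor genes were nearest to 4 members (0.415%), against 0.141% of NMDA-only and 0.133% of shared regions. The members' interval of 0.1615 to 1.062 overlaps those of NMDA-only (0.04809 to 0.4149) and shared regions (0.08197 to 0.2162). The 4 lay at 2 genes, with 3 at Grin3a, where the longest run of members begins. The strongest at each gene were 112490 bp from Grin3a, an NMDA receptor subunit gene (81.38), and 197665 bp from Grm7, a metabotropic receptor gene (40.87). Synaptic scaffold and adhesion genes were nearest to 4 members (0.415%), against 0.613% of NMDA-only and 0.216% of shared regions, among them Cntnap5b, Nrxn3 at 102339 bp (78.38) and Cntnap5a at 37616 bp (68.99). The 1 member at a GABA-A receptor gene (0.104%, against 0 NMDA-only regions and 0.02496% of shared regions) lay 3051 bp from Gabrg3 (55.33). Potassium channel genes were nearest to 5 members (0.519%), against 0.141% of NMDA-only and 0.391% of shared regions. The strongest lay 39590 bp from Kcnv1 (89.84), 614753 bp from Kcna4 (69.17), 226475 bp from Kcnn2 (67.57) and 143063 bp from Kcnq5 (59.51).

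Cadherin and non-clustered protocadherin genes were nearest to 7 members (0.726%), against 0.566% of NMDA-only and 0.558% of shared regions. The strongest were 968836 bp from Cdh20 (126.8) and 2443 bp from Pcdh17 (124.8), followed by Pcdh9 at 249168 bp (77.08) and Cdh9. Axon guidance genes were nearest to 4 members (0.415%), against 0.471% of NMDA-only and 0.383% of shared regions. These lay 14090 bp from Nrp1 (88.68), 2851 bp from Unc5c (71.85), 1000786 bp from Slit2 (71.31) and 67375 bp from Unc5d (66.94). Genes of fibroblast growth factor, Wnt and BMP ligands were nearest to 6 (0.622%), against 0.754% of NMDA-only and 0.558% of shared regions. The strongest lay 117655 bp from Fgf10 (93.77), 45668 bp from Fgf20 (85.04), 3070 bp from Wnt9a (61.6) and 2949 bp from Bmp4 (52.34).

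Among the remaining lists, that of CTCF, cohesin and topoisomerase genes also holds Yy1, a looping factor gene. Its genes were nearest to 1 member (0.104%), against 0.0943% of NMDA-only and 0.0915% of shared regions. That gene was Yy1, 29196 bp from the member (33.76), and no other gene of the list was nearest to a member. Immune and vascular genes had 1 (0.104%), against 0.141% of NMDA-only and 0.191% of shared regions, 7442 bp from Flt1 (54.18). Imprinted genes had 1 (0.104%), against 0.330% of NMDA-only and 0.233% of shared regions, at 1117 bp from Magel2 (61.21). Astrocyte and oligodendrocyte genes had 0 of 964, which allows up to 0.397% by the Wilson interval, against 0.189% of NMDA-only and 0.241% of shared regions, both below that limit. Olfactory and vomeronasal receptor genes were nearest to 15 members (1.56%), against 1.04% of NMDA-only and 0.965% of shared regions, led by Olfr291 (111.7), Olfr469 (108), Olfr1505 (95.82) and Olfr685 (94.69). Zinc finger genes of the Zfp family were nearest to 21 (2.18%), against 1.65% of NMDA-only and 1.55% of shared regions, led by Zfp507 (136.3), Zfp128 (98.14), Zfp385b (88.3) and Zfp949 (78.03).

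By chromosome, the share of intergenic control regions that were control-only ran from 5.21% (3.93 to 6.88) on chromosome 11 to 9.31% (6.88 to 12.5) on chromosome 16, and on chromosome Y 0 of 10 regions were. Among 21 chromosomes, chromosome 11 was the only one whose interval lay wholly on one side of the 7.43% for all. The intervals are not adjusted for the number of chromosomes, so a single miss is not read as a difference. Chromosome X held 31 members (3.22%), against 4.95% of NMDA-only and 2.61% of shared intergenic regions. The summit lay inside an lncRNA gene in 172 members (17.8%), against 15.2% of NMDA-only and 16.1% of shared regions, and both intervals of the difference include 0 (−0.118 to 5.60 from NMDA-only, −0.659 to 4.35 from shared regions). The nearest gene also had a shared control region within 1 kb of an end for 290 members (30.1%), against 31.0% of NMDA-only and 29.5% of shared intergenic regions.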

How the data were processed

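FastQC, Trimmomatic, BWA, SAMtools and MACS2 and the builds mm10 and GRCm38.p6 are named, per the submitters' processing notes, with no version or setting given in the sources used here. The authors deposited 1 region list per condition, whose names mark it as the result of an irreproducible discovery rate (IDR) step. Its −log10 p column, deposited by the authors for each region, was used as signal. The deposited score column ran from 540 to 1000 and rises with reproducibility. Outside chromosomes 1 to 19, X and Y lay 7 NMDA and 5 control regions, which were left out. Values are per region, so depth is unknown.

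From these lists, regions were set against each other by overlap of at least 1 bp and placed by summit against 21887 protein-coding genes (RefSeq, GRCm38.p6). Strand is not part of the gene table used, and either end of a gene counted as a gene end. Deciles were cut over the whole control list. The signal band ran between the lower and upper quartile of the members. Python 3.11.15, numpy 2.4.6, pandas 2.3.3, scipy 1.17.1 and statsmodels 0.14.6 were used for counts, 95% Wilson intervals of shares and 95% Newcombe intervals of differences. The steps were tested on simulated data.

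The members and the 16 gene lists were chosen with earlier results of these data known. Regions are named by a rule: the 10 strongest members, the 5 widest, the 5 farthest from a gene end, 5 on each side of the 1 kb limit, the 5 nearest to and 5 farthest from an NMDA region, up to 5 gaps with the most members, and up to 4 genes of each list, strongest first. The longest run, the microRNA and promoter regions and further developmental transcription factor genes were named after their values were seen. The base composition of the member regions was not analysed here, since no genome was used, and the input libraries were not analysed here. A few regions that the rule names are not reported here.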

Additional observations from a re-analysis of the deposited data

How the results depend on the processing

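No paired analysis was possible because each condition is 1 list built over both replicates, and for the same reason leaving out a replicate was not run. Of the recomputed values 64 were kept, 23 moved, 9 lost their call and 6 reversed. Differences were kept when they had the same direction and side, and shares and medians when they stayed within the interval of the reported value. For medians that interval runs between order statistics. Counts of members have no interval and were kept when within a set fold of 964. The kept counts ran from 741 with genes of all types to 1135 with an NMDA list as long as the control list.

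Closer matches moved most values. With a reciprocal overlap of at least 50% there were 1695 members, 13.06% of intergenic control regions and 33.87% of control-only regions. Their median width was 871 bp, their median percentile 22.08 and their median distance 18076 bp. With summits within 100 bp these were 1582 members, 12.19%, 889.5 bp, percentile 18.02 and 18446.5 bp. Under these 2 settings in turn, the excess of members farther than 50 kb was 1.84 and 2.019 points over shared regions and −1.432 and −1.301 points over NMDA-only regions. The difference in close control neighbours was 9.212 and 7.547 points. In deciles 4 to 10, intergenic minus gene end gave −0.09029 points (−1.073 to 0.8416) and −4.175 points (−5.223 to −3.182). Summits within 100 bp gave 0.02697 points for intergenic minus in gene, with an interval that includes 0. The share of members at developmental transcription factor genes was 2.655% with summits within 100 bp, and that of the other sets was not recomputed.

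Scores of at least 830 left 421 members, 4.096% of intergenic and 28.7% of control-only regions, with a median width of 848 bp, and differences in deciles 4 to 10 of 0.2899 points from gene ends and 0.06203 points from genes, both with intervals that include 0. Extension by 500 bp gave 6.933% of intergenic regions control-only, and an NMDA list as short as the control list gave 8.743%. That shorter list, a limit of 5 kb and autosomes alone gave 1.754, 4.173 and 3.596 points farther than 50 kb over NMDA-only regions, each interval including 0. The 5 kb limit by its construction gave 25.09% of control-only regions and a median distance of 41274.5 bp. Genes of all types, under which more genes count as neighbours, gave 23.77%, 10996 bp and 1.215% of members at developmental transcription factor genes. In the signal band the difference in close control neighbours was −4.488 points. Other causes were not tested. The results on deciles 4 to 10 and on developmental transcription factor genes were chosen after seeing the data. Depth is unknown, and the lists hold no value for a place where no region was listed, so the signal of NMDA cultures at the members cannot be given.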
